A study of Mus musculus with 2 samples.

Results

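Exonic open regions are the peaks of open chromatin that the authors' annotation placed in an exon, away from gene starts. They were taken from a pair of ATAC-seq peak lists of mouse regulatory T (Treg) cells by the rule that the annotation of the peak begins with the word Exon. The rule found 1707 of the 34440 wild-type (WT) peaks, or 4.96%, and 681 of the 19680 knockout (cKO) peaks, or 3.46%. Both lists together gave 2388 exonic peaks among 54120. Among the strongest WT peaks, taken in the number of the cKO list, 4.04% were exonic (796 peaks).

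ATAC-seq uses the Tn5 transposase to insert sequencing adapters where DNA is accessible. The cells were CD4+CD25+YFP+ Treg cells sorted from the lymph nodes and spleens of untreated C57BL/6 females, 7 weeks old, that the labels call chimeric, and 50000 cells entered the reaction. The WT library came from a Foxp3cre/+ mouse of wild-type genotype, and the cKO library came from a Foxp3cre/+ TKTfl/fl mouse, so both carried Cre under Foxp3, the gene of the Treg lineage factor, on 1 of the X chromosomes. TKT is transketolase, an enzyme of the non-oxidative pentose phosphate pathway. The gene Tkt held no exonic peak in either list, and peak lists give no check of its deletion.

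There was 1 library per group, so differences between WT and cKO could not be checked against replicates and are given without a p-value. The sequencing depth is unknown, because read totals were not used here. A peak absent from a list cannot be told from a peak below the threshold of the peak caller. In a sort of many cells, fewer cells with an open region and a less open region in each cell cannot be told apart either. All 9 Treg and T cell markers examined, Foxp3, Il2ra and Ctla4 among them, had a peak in both lists. Of the other lineages, 2 of 5 B cell markers had a WT peak (Cd79a and Cd79b) and 1 had a cKO peak (Cd79a). Of 5 myeloid markers, 2 had a WT peak (Spi1 and Cd14) and 2 had a cKO peak (Lyz2 and Cd14). Of 4 CD8 T and NK markers, the same 2 had a peak in each list (Cd8b1 and Klrb1c). Of 3 erythroid markers, 1 had a WT peak and 2 had a cKO peak. These counts take a peak of any class, and the share of all genes with a peak was not computed. Of 48 chromatin regulator genes, for example, 46 had a WT peak. The marker counts therefore do not measure the purity of the sort.

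As background, most accessible DNA of a mammalian cell lies at promoters and at enhancers between genes or in introns. Exons are short beside introns, and a peak over an exon usually covers part of the flanking introns as well. Coding exons can hold binding sites of transcription factors, and some exons of 1 transcript serve as the start of another, shorter transcript. An annotation that gives the promoter class to every peak within 3 kb of a gene start takes most peaks over opening exons out of the exonic class.

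RefSeq places a transcript start inside 18 of the 1707 WT exonic peaks (1.05%), which hold 20 starts, and inside 7 of the 681 cKO exonic peaks (1.03%). These exonic peaks are seldom at a RefSeq start, as are the intronic WT peaks (0.840%), beside 55.2% of WT promoter peaks. The promoter class takes the peaks within 3 kb of a gene start, so this contrast follows largely from the class rule. Of the 20 starts, 11 belong to long non-coding RNAs (lncRNA), and 9 belong to the gene that owns the exon, with Gm13522 counted in both. For 11 of the starts the RefSeq window of 300 bases, running from 250 before the start to 50 after it (GRCm38.p6, the assembly of mm10), lay wholly inside the exonic peak. Some of these windows are shown because they are the stretches of exonic open chromatin with a sequence at hand. Of these windows, 7 lay in WT exonic peaks that a cKO peak overlapped. The 4 of them that follow are written 5′ to 3′ on the strand of the transcript, with motif matches in capitals.
E2f2, in exon 3 of 7 of E2f2, chr4:136180532-136180831, plus strand: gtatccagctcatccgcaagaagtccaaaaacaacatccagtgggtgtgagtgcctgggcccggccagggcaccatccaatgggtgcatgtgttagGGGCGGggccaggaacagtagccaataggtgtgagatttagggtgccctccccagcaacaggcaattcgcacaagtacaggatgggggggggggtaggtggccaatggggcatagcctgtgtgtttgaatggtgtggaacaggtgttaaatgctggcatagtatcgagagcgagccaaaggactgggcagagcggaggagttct
Gm29638, in exon 2 of 2 of 1810019N24Rik, chr7:12949735-12950034, plus strand: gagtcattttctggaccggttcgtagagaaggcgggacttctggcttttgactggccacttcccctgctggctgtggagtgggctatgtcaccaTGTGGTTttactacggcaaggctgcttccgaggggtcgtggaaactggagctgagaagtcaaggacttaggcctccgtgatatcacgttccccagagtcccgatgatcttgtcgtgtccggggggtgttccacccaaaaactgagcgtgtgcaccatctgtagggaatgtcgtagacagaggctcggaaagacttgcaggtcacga
Gm51782, in exon 7 of 10 of Rab3ip, chr10:116913915-116914214, plus strand: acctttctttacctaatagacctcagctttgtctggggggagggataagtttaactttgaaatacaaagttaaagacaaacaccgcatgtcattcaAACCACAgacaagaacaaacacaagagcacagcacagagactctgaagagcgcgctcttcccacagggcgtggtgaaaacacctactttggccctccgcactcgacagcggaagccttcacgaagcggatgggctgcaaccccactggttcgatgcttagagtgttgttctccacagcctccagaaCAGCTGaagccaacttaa
Gm41453, in exon 5 of 7 of Cd80, chr16:38482834-38483133, minus strand: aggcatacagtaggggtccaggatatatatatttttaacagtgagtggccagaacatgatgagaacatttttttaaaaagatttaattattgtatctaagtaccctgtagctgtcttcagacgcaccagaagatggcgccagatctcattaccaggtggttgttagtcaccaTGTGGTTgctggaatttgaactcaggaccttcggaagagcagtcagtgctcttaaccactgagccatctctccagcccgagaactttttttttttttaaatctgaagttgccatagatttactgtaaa

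Set beside them are 3 of the 4 windows in WT exonic peaks without a cKO peak.
Gm13522, in exon 2 of 7 of Gm13522, chr2:52378344-52378643, plus strand: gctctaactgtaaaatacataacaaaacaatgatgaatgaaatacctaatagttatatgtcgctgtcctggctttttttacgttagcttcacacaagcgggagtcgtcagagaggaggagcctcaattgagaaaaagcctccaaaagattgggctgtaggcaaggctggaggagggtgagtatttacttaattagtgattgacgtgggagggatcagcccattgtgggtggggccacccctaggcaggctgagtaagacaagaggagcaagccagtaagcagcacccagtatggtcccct
Gm32336, in exon 5 of 8 of Fez2, chr17:78400276-78400575, minus strand: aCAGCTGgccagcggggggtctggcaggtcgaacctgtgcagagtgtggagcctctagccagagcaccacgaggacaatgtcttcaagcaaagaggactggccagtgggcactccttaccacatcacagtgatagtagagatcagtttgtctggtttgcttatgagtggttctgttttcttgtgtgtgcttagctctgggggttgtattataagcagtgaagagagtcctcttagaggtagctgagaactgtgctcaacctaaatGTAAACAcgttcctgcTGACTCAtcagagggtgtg
Gm33862, in exon 22 of 32 of Sfi1, chr11:3136826-3137125, plus strand: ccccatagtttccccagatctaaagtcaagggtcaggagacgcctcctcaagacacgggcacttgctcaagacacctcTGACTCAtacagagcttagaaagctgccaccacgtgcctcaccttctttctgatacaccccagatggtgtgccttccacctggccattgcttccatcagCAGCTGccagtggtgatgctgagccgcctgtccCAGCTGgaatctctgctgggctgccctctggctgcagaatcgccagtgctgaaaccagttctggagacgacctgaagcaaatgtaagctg

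Capitals mark the GC box of SP factors (GGGCGG) in the E2f2 window and the RUNX motif (TGTGGTT, or AACCACA on the other strand) in the windows of Gm29638, Gm51782 and Gm41453. They mark the AP-1 motif (TGANTCA) and the E-box (CAGCTG) in the windows of Gm32336 and Gm33862, the E-box again in that of Gm51782, and a forkhead motif (TGTTTAC, read as GTAAACA) in that of Gm32336. The window of Gm13522 held none of the motifs searched. Of the windows not printed, those in shared peaks held a GC box (Gm35932), an E-box (Gm30745) and no motif (Gm38426). The unprinted window of Gm52148, in a peak without a cKO peak, held an AP-1 motif. The printed windows are a choice, so motifs are not compared between peaks with and without a cKO peak. Among the 11 windows, the E-box occurred in 4, the RUNX and AP-1 motifs in 3 each, the GC box in 2 and the forkhead motif in 1. Among all 32817 distinct RefSeq windows of this length the same motifs occurred in 16.3%, 5.27%, 7.81%, 35.6% and 3.65%. The ETS motifs CCGGAAGT and CAGGAAGT, which share the letters GGAAGT, the TCF/LEF motif CTTTGAT and the KLF motif CCACACCC occurred in none of the 11 and in 3.89%, 3.33%, 3.73% and 3.56% of all windows. Both strands were searched, and the motif runs shown do not overlap. A match describes the letters and not the binding of a factor.

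The peak around the E2f2 window was among the strongest exonic peaks of both lists. Scores are given here as percentiles, the share of peaks of the same list with a lower score, because the score of a peak is the authors' own value and the lists differ in length. The E2f2 peak stood at percentile 97.9 in WT and 96.4 in cKO. The peak around the start of Gm29638 stood at 95.9 and 84.6, and that around Gm51782, in an exon of the vesicle traffic gene Rab3ip, stood at 78.0 and 76.4. The peak over exon 5 of Cd80, which encodes a ligand of CD28 and CTLA-4, stood at 52.9 in WT. The peaks without a cKO overlap stood at 55.7 (Gm13522), 40.8 (Fez2) and 13.7 (Sfi1) in WT. A single microRNA of the RefSeq table, Mir12181, lay in an exonic peak, over exon 6 of 11 of Coro6, a gene of the coronin family of actin regulators. This peak stood at percentile 83.2 in WT (chr11:77467183-77468114) and 83.7 in cKO (chr11:77467198-77468095). Its mature RNAs are shown from RefSeq with the seed, bases 2 to 8, in capitals, and the seeds differ.
miR-12181-5p: uUGAGGGUgcauaaggacugga
miR-12181-3p: uCCAGGCCucuugcucucuca

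A smaller share of WT exonic peaks than of all WT peaks was matched in the cKO list, and nearly all cKO exonic peaks were matched in the WT list. A cKO peak overlapped 727 of the 1707 WT exonic peaks by at least 1 base, or 42.6% (Wilson 95% interval 40.3 to 44.9), beside 56.1% of all WT peaks. The other 980 exonic peaks had no cKO peak, beside 43.9% of all WT peaks. In the other direction a WT peak overlapped 655 of the 681 cKO exonic peaks, or 96.2% (94.5 to 97.4), beside 97.6% of all cKO peaks. The 26 cKO exonic peaks with no WT peak compare with 2.36% of all cKO peaks. The lists differ in length, and with the WT list reduced to the length of the cKO list by score the exonic shares were 69.2% of WT and 73.7% of cKO peaks. The intervals reflect counting error alone, since PCR copies, and peaks that lie close together, do not count as independent.

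Exonic peaks were weaker than promoter peaks and slightly stronger than intronic peaks of the same list. The median score percentile of exonic peaks was 40.2 in WT (quartiles 21.8 and 58.2) and 34.9 in cKO (16.9 and 56.2). The median of intronic peaks was 35.0 in WT and 29.8 in cKO, and that of promoter peaks was 71.2 in WT and 64.1 in cKO. The median exonic width was 887 bp (range 362 to 3538) for WT and 912 bp (465 to 3096) for cKO. The median distance from an exonic peak to the gene start the authors assigned to it was 12416 bp in WT and 12480 bp in cKO.

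Whether a WT exonic peak had a cKO peak followed its score rank. In the lowest of 10 equal score bins of the WT list, 8 of 185 exonic peaks were overlapped (4.32%). The share was 40.2% in bin 5, 84.0% in bin 7 and 90.2% in bin 8 (129 of 143). In bins 9 and 10 all 90 exonic peaks were overlapped, which allows a share without a cKO peak of up to 3.33%. Width ran alongside, with 7.48%, 32.6%, 63.2% and 82.3% of WT exonic peaks overlapped from the narrowest to the widest of 4 equal width bins of the list. The 26 cKO exonic peaks without a WT peak were weak, with a median percentile of 6.72 and none above 24.7. None of the 213 cKO exonic peaks above the median score of that list lacked a WT peak, which allows a share of up to 1.41%.

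Beside other classes, the exonic share of WT peaks with a cKO peak was near that of introns and gene ends. It was 39.8% for intronic peaks (3603 of 9043), 42.9% for distal intergenic peaks, 42.3% for peaks in 3′ untranslated regions and 74.3% for promoter peaks. The exonic share was 2.75 points above the intronic share (Newcombe 95% interval 0.209 to 5.31). Compared within score bins, the difference was -1.42 points (-3.50 to 0.654), and within score and width bins it was -2.24 points (-4.20 to -0.282). The sign did not hold across settings. With the WT list reduced to the length of the cKO list, the difference was -2.23 points before and -1.81 points after matching by score bin, and with only the upper 50% of each list by score it was 3.42 and 1.92 points. The exonic share was 31.8 points below the promoter share (difference -31.8 points, -34.2 to -29.3), and within score bins the difference was -7.32 points (-9.41 to -5.22). In the cKO list the exonic and intronic shares differed by 0.664 points (-1.16 to 2.05).

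**Figure D1:**
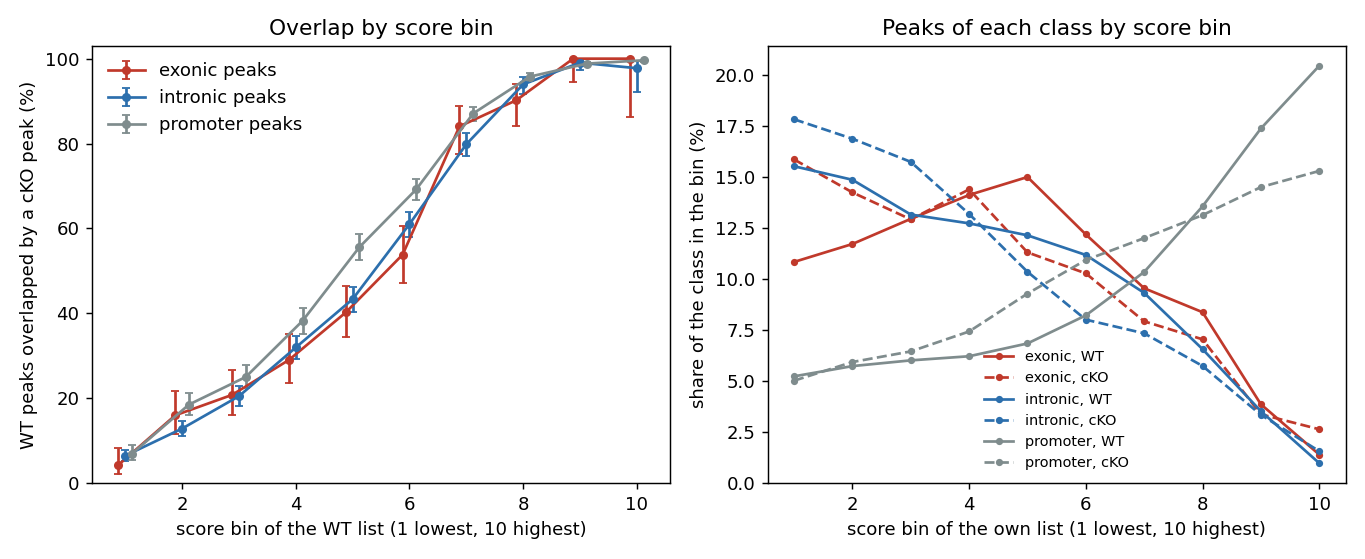
Left, percent of WT exonic, intronic and promoter peaks overlapped by a cKO peak (y axis) in 10 equal score bins of the WT list (x axis), with Wilson 95% intervals. Right, percent of the exonic, intronic and promoter peaks of each list that fall in each score bin of that list. The exonic line rises from 4.32% in bin 1 to all 90 peaks of bins 9 and 10 and runs close to the intronic line, and exonic and intronic peaks thin out in the bins where promoter peaks gather.

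Most exonic peaks lay over inner exons of long transcripts. The annotation placed 197 WT peaks in exon 1 or 2, 125 in the last exon and 1385 in an inner exon, and it placed 92, 53 and 536 cKO peaks there. Only 12 WT and 6 cKO peaks were in exon 1. Exon 2 held 185 WT and 86 cKO peaks, of which 61 and 31 were exon 2 of 2 and are counted with the first exons. The median transcript had 14 exons in WT (quartiles 8 and 22) and 13 in cKO (7 and 22).

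Peaks over the first 2 exons were matched somewhat more often than inner ones, and the difference shrank when scores were matched. A cKO peak overlapped 98 of 197 WT peaks in the first 2 exons (49.7%, 42.8 to 56.7), 575 of 1385 in inner exons (41.5%, 38.9 to 44.1) and 54 of 125 in last exons (43.2%, 34.8 to 52.0). The first 2 exons were 8.23 points above inner exons (0.842 to 15.6), and within score bins the difference was 2.74 points (-3.60 to 9.07). Last exons differed from inner exons by 1.68 points (-7.07 to 10.8). Along the inner exons the share was 45.4% in part 1 of 3 of the transcript, 42.6% in part 2 and 38.3% in part 3. The median percentile was 43.6 in the first 2, 39.8 in inner and 44.9 in last exons of WT, and 32.1, 33.2 and 51.4 in those of cKO. Last exons had the highest median of the 3 positions in both lists, in WT by little (44.9 beside 43.6). WT peaks in exons of predicted gene models had a median of 44.8, and those of named genes 39.6. Without predicted models the WT overlap shares were 50.9% in the first 2, 41.1% in inner and 32.6% in last exons. The medians by position were not computed without predicted models. All 53 cKO peaks in last exons had a WT peak, as did 89 of 92 in the first 2 exons (96.7%) and 513 of 536 in inner exons (95.7%).

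**Figure D2:**
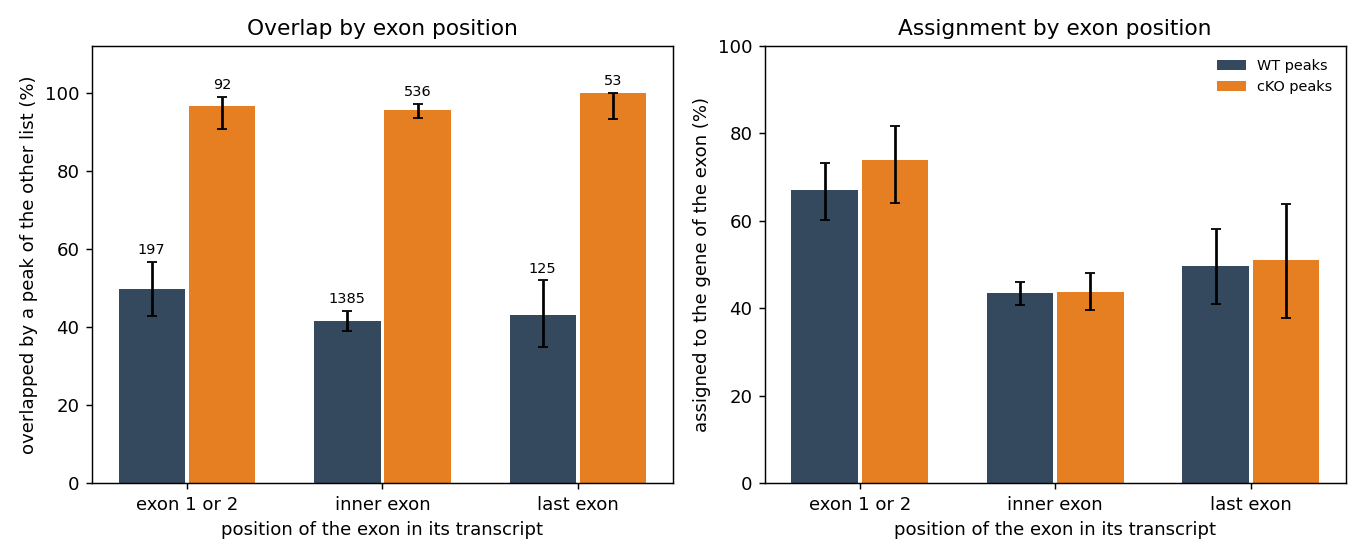
Percent of exonic peaks overlapped by a peak of the other list (left) and percent whose assigned gene is the gene of the exon (right), by position of the exon, for WT (dark) and cKO (orange) peaks, with Wilson 95% intervals and the number of peaks above each bar on the left. Overlap in WT is 49.7%, 41.5% and 43.2% from first 2 to last exons, and assignment to the exon's own gene is highest for the first 2 exons in both lists.

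Each peak carries both the gene of its exon and an assigned gene, the gene with the nearest annotated start, and for most exonic peaks these were not the same gene. They were the same for 795 of 1707 WT peaks (46.6%, 44.2 to 48.9) and 330 of 681 cKO peaks (48.5%, 44.7 to 52.2), beside 51.2% and 52.7% of intronic peaks. The same gene was given for 67.0% of WT peaks in the first 2 exons, 43.4% in inner exons and 49.6% in last exons, and for 73.9%, 43.8% and 50.9% of cKO peaks. Of the 912 WT exonic peaks assigned to another gene, 504 were assigned to a predicted or clone-named gene model, and 212 of 351 in cKO. The exonic peak of Plcg1, for example, was assigned to the predicted model Gm27206, and all 4 exonic peaks of the kinase gene Map4k4 to 4930456G14Rik. Genes are named below by the exon. A WT peak assigned to the gene of its exon was overlapped in 43.6% of cases (40.2 to 47.1) and a WT peak assigned elsewhere in 41.7% (38.5 to 44.9), intervals that overlap.

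The 1707 WT exonic peaks lay in 1528 genes and the 681 cKO peaks in 647 genes. The lists shared 589 genes, 38.5% of the WT genes and 91.0% of the cKO genes. By peak, 56.1% of all WT and 97.6% of all cKO peaks had a partner in the other list, and the lists differ in length. Shared genes were not counted for other classes. In WT, 1376 genes had 1 exonic peak, 132 had 2 and 20 had 3 or more, and in cKO the numbers were 615, 30 and 2. RefSeq names 1303 of the WT genes as protein coding and 117 as lncRNA genes, while 100 did not match a RefSeq symbol, and in cKO 535 were protein coding, 65 lncRNA and 44 unmatched. Of the protein coding genes, 913 of 1303 in WT (70.1%, 67.5 to 72.5) and 327 of 535 in cKO (61.1%, 56.9 to 65.2) also had a promoter peak in the same list. Here and below, a promoter peak counts for its assigned gene alone, so a promoter peak assigned to a neighbouring gene is missed. Protein coding genes with an intronic peak had a promoter peak in 73.6% of cases in WT and 68.6% in cKO. These sets overlap, since 581 of the 1303 and 187 of the 535 genes with an exonic peak also had an intronic peak, and the difference was not tested. WT exonic peaks of genes with a promoter peak were overlapped by a cKO peak in 41.6% of cases (432 of 1039) and those of genes without in 40.7% (175 of 430). In 259 WT genes and 164 cKO genes the exonic peak came with neither an assigned promoter peak nor an intronic peak. These genes are not shown to lack an open promoter.

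Where both lists had a peak, the pair was mostly placed in the same exon. Of the 727 overlapped WT exonic peaks, 614 had an exonic cKO partner (84.5%), 561 of them in the same exon and 52 in another exon of the same gene. The cKO partner was intronic for 110 (15.1%). Of the 655 overlapped cKO exonic peaks, the WT partner was exonic for 612 (93.4%), intronic for 22 (3.36%) and in a 3′ untranslated region for 13. The borders of partner peaks differ between the lists, and a gene can be exonic in 1 list only while both have a peak there. At Ikzf1, which encodes the lymphoid factor Ikaros, the cKO peak over exon 4 of 9 (percentile 72.1) overlapped a WT peak annotated to intron 4 (percentile 52.4).

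In these 727 pairs the WT peak was the wider in 618 (85.0%), with a median width of 1193 bp beside 904 bp. Spearman's rho of the percentiles in both lists was 0.809 across the pairs, as a description over peaks of 2 libraries that share sequence and annotation. The median percentile of the pairs was 59.5 among WT peaks and 35.1 among cKO peaks, and ranks in lists of different length show no change in a peak. The 980 WT exonic peaks without a cKO partner had a median percentile of 28.2 and a median width of 709 bp, and 141 of them were narrower than 465 bp, the narrowest peak in the cKO list. They were not all weak, since 136 of the 604 WT exonic peaks above the median score of the list had no partner.

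**Figure D3:**
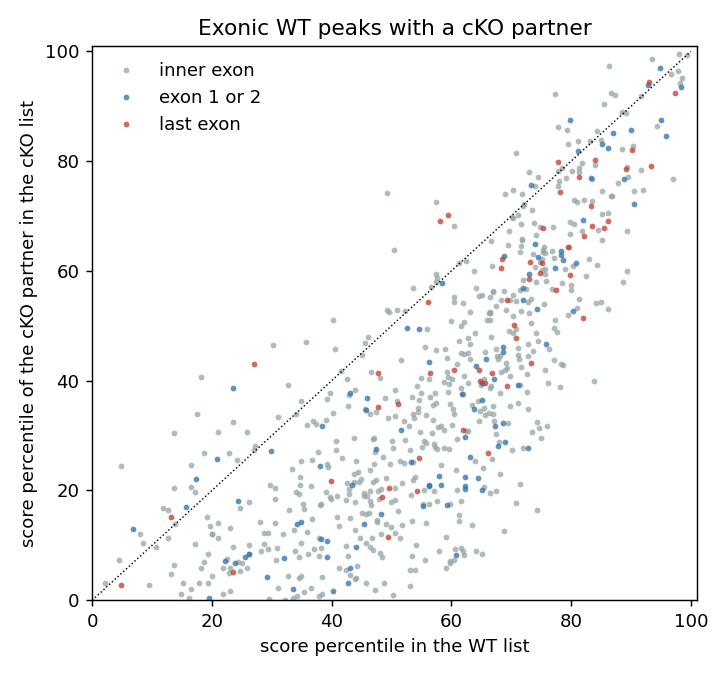
Each point is 1 of the 727 WT exonic peaks with a cKO partner, by its score percentile in the WT list (x axis) and the percentile of the partner in the cKO list (y axis), coloured by exon position, with a dotted line where both are equal. Points follow a common course (Spearman's rho 0.809) and most lie below the line, with medians of 59.5 and 35.1, and strong pairs occur at all 3 positions.

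Predicted models aside, and ranked by WT score, the 10 strongest exonic peaks present in both lists lay in genes of varied function. The strongest in WT was over exon 4 of 6 of Mnt, which encodes a MAX partner that opposes MYC, at chr11:74837558-74839296. It stood at percentile 99.4 in WT and 99.3 in cKO. Phf19, a companion of the Polycomb complex PRC2, had a peak over exon 6 of 15 (chr2:34904712-34905641) at 98.5 and 95.2. Ablim1, an actin-binding LIM protein gene, had a peak over exon 6 of 26 (chr19:57131427-57133238) at 98.0 and 99.6. E2f2, a cell cycle transcription factor gene, had the peak over exon 3 of 7 (chr4:136179518-136181530) whose start window is printed above. Patj, a polarity scaffold gene, had a peak over exon 12 of 44 (chr4:98435916-98437551) at 96.7 and 96.0. All 5 stood in the top score bin of both lists.

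The other 5 of the 10 strongest shared exonic peaks varied more between the ranks. Kcnip2, which encodes a partner of potassium channels, had a peak over exon 2 of 9 (chr19:45795809-45797326) at 94.9 in WT and 97.0 in cKO. Tnfrsf10b, the gene of a TRAIL death receptor, had a peak over exon 4 of 8 (chr14:69774353-69775769) at 93.5 and 98.6. Def6, which encodes an exchange factor active in T cell signalling, had a peak over exon 3 of 11 (chr17:28217232-28218591) at 94.4 and 86.5. These 3 were in the top score bins 9 and 10 in both lists. Crybg2 had a peak over exon 12 of 22 (chr4:134081384-134082651) at 97.0 and 76.7, and Spaca6, a sperm protein gene, had a peak over exon 6 of 9 (chr17:17837705-17838859) at 92.1 and 74.8. In both of these the cKO partner was placed over the next exon, and the Crybg2 peak was assigned to Cd52, a lymphocyte surface antigen gene whose start lay 12431 bp away.

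The strongest WT exonic peaks without a cKO peak were all in score bin 8, at percentiles 70.6 to 78.2. Hunk, a kinase gene, had the highest, over exon 7 of 11 (chr16:90475488-90476320), and the nearest cKO peak lay 125373 bp away. Ap2a1, a clathrin adaptor subunit gene, followed at 77.3 over exon 20 of 24 (chr7:44901228-44901965), with a cKO peak 4853 bp away. Adora2a, which encodes the adenosine receptor that dampens T cell responses, had a peak over exon 2 of 3 (chr10:75326120-75327147) at 77.0, with the nearest cKO peak at 8074 bp. These regions therefore had no cKO peak at the exon, while at Ap2a1 and Adora2a another region nearby did.

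The next of this kind were Gnal, a G protein subunit gene, at 76.5 over exon 8 of 12, and Cuedc1 at 74.4 over exon 8 of 11. Flot1, a membrane scaffold gene, stood at 73.5 over exon 9 of 13, Ssc5d, a scavenger receptor gene, at 73.4 over exon 14 of 14, and Myo3b, a myosin gene, at 72.9 over exon 5 of 35. Gys1, the gene of muscle glycogen synthase, stood at 72.8 over exon 13 of 16, and Rrp1b, a ribosomal RNA processing gene, at 70.6 over exon 10 of 16. Of the 143 WT exonic peaks in bin 8, 129 did have a cKO peak.

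The strongest cKO exonic peaks without a WT peak were weaker still within their own list. Cenpe, the gene of a kinetochore motor, had the highest of the named genes, at percentile 23.1 over exon 35 of 46 (chr3:135249404-135250178), with the nearest WT peak 36260 bp away. Slc38a6, a gene of an amino acid transporter family, followed at 18.5 and Inpp5k, an inositol phosphatase gene, at 16.3. Gigyf2, a translation repressor gene, and Zfr, an RNA-binding zinc finger gene, both stood at 15.2. Sorbs3, the gene of the adhesion protein vinexin, stood at 14.6, Itpk1, an inositol kinase gene, at 13.8, and Rapgef4, a cAMP-responsive exchange factor gene, at 13.5. Pex7, a peroxisomal import receptor gene, stood at 8.92 and Nup214, a nuclear pore gene, at 8.49. All 10 lay over inner exons.

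The gene with most WT exonic peaks was Sfi1, a centrosome protein gene, with 5 between exons 5 and 27 of 32 (chr11:3132697-3177522). Of these 4 had a cKO peak, and their percentiles in WT ran from 13.7 to 89.3. Ablim1, Map4k4, Thada, Tmc3 and Tns1 had 4 each. At Ablim1 the strong peak over exon 6 and that over exon 10 had a cKO peak, and those over exons 8 and 25 did not. At Thada 3 of 4 had a cKO peak, at Tmc3 and Tns1 2 of 4, and at Map4k4 1 of 4. Peaks in different exons of 1 gene thus differed in whether a cKO peak was present. At Tns1, an adhesion protein gene, all 4 were assigned to Tns1 itself, and at Thada none was assigned to Thada.

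A minority of the genes of Treg identity and suppression had an exonic peak, as in the other gene lists, although nearly all had a WT peak of some class. The share among all genes was not computed, so the count is not shown to be low. Of 36 such genes, 34 had any WT peak, 6 had a WT exonic peak and 2 had a cKO exonic peak. Ikzf4, which encodes the Treg factor Eos, had the strongest, over exon 6 of 8 (chr10:128636617-128637724), at percentile 89.2 in WT and 88.7 in cKO. Tnfrsf1b, the gene of TNF receptor 2, had a peak over exon 2 of 10 (chr4:145229011-145230241) at 73.0 and 59.4. Gpr83, a G protein-coupled receptor gene expressed in Treg cells, had a WT peak over exon 3 of 4 at 46.4, and its cKO partner at 23.7 was annotated to intron 3. Itgae (CD103) at 54.5, Nrp1 (neuropilin) at 13.9 and Ikzf2 (Helios) at 9.93 had WT exonic peaks with no cKO peak. The 3 of 6 that were overlapped (50.0%) compare with 42.6% of all WT exonic peaks and 56.1% of all WT peaks.

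T cell transcription factor genes had 14 WT exonic peaks in 11 of 40 genes, and a cKO peak overlapped 10 of them (71.4%, 45.4 to 88.3). The share was 42.6% for all WT exonic peaks and 56.1% for all WT peaks. The 14 peaks had a median percentile of 49.8, beside 40.2 for all WT exonic peaks. Some lay in the same gene, so the interval treats peaks as independent that may not be. All 11 cKO exonic peaks of the list had a WT peak. Irf4, needed for effector Treg cells, had a peak over exon 8 of 9 (chr13:30760149-30761528) at 74.1 in WT and 66.6 in cKO. Stat3, a cytokine signal transducer gene, had 3, over exons 7, 12 and 19 of 24, at 67.1, 47.6 and 64.7 in WT, with cKO partners at 32.7, 14.3 and 32.7. The cKO partner at exon 19 spanned 1955 bp and also overlapped another WT peak, in intron 21, at percentile 13.9. Stat5b, a relative of Stat3 that carries interleukin-2 signals, had a peak over exon 3 of 19 at 63.8 and 60.0. Nfkb1, an NF-kappaB subunit gene, had a peak over exon 18 of 25 at 66.6 and 39.1 and a weak WT peak over exon 13 at 3.73 with no cKO peak. Nfatc1, a calcium-responsive factor gene, had a peak over exon 2 of 10 at 56.3 and 43.5. Ikzf3 (Aiolos) had a WT peak at 51.9 with no cKO peak.

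The remaining peaks of the list, named here after their values were seen, were Lef1 at 46.1 in WT and 48.0 in cKO, Satb1 at 24.2 and 25.5, and Ets1 at 17.4 and 22.0. Tbx21 (T-bet) at 30.5 and Rel at 1.82 had no cKO peak. At Ets1 the cKO peak spanned 1965 bp and the WT exonic peak 522 bp. The same cKO peak also overlapped another WT peak, of 1116 bp in intron 1, at percentile 39.2.

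Genes of T cell receptor signalling had 7 WT exonic peaks in 6 of 34 genes, and all 4 cKO exonic peaks had a WT peak. Of the 7, 4 had a cKO peak (57.1%, near the 56.1% of all WT peaks), beside 42.6% of all WT exonic peaks. The 7 peaks had a median percentile of 56.3, beside 40.2 for all WT exonic peaks. Plcg1, the gene of phospholipase C gamma 1, had the strongest, over exon 22 of 34 (chr2:160756118-160757328), at 79.8 in WT and 68.9 in cKO. Ptpn22, a phosphatase gene that restrains the receptor, had a peak over exon 13 of 21 at 66.5 and 19.6. Prkcq, the gene of protein kinase C theta, had a peak over exon 10 of 18 at 57.4 and 72.6. Csk, an inhibitory kinase gene, had a peak over exon 6 of 13 at 56.3 and 40.4. The adaptor gene Lcp2 (SLP-76), with peaks at 27.1 and 29.4, and the ubiquitin ligase gene Cbl, at 21.8, had no cKO peak there.

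Genes of chromatin regulators had 16 WT exonic peaks in 11 of 48 genes, and a cKO peak overlapped 5 (31.2%, 14.2 to 55.6), an interval that includes the 42.6% of all WT exonic peaks, beside 56.1% of all WT peaks. Chd7, a remodeller gene, had peaks over exons 7 and 16 of 38 (chr4:8810930-8812823 and chr4:8837453-8839843) at 79.4 and 71.8 in WT and 85.7 and 65.9 in cKO, and a peak over exon 29 at 53.7 with no cKO peak. Kdm2b, a histone demethylase gene, had a peak over exon 7 of 23 at 76.1 and 39.7, a WT peak over exon 3 at 31.4 and a cKO peak over exon 18 at 5.82, of which those over exons 3 and 18 had no partner. Smarca2, a SWI/SNF ATPase gene, had a peak at 59.4 and 40.7, and Chd2, another remodeller gene, at 42.5 and 21.4. The deacetylase gene Hdac4 had a WT exonic peak at 41.9 with no cKO peak. Of the 7 cKO exonic peaks of the list, 6 had a WT peak.

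**Figure D4:**
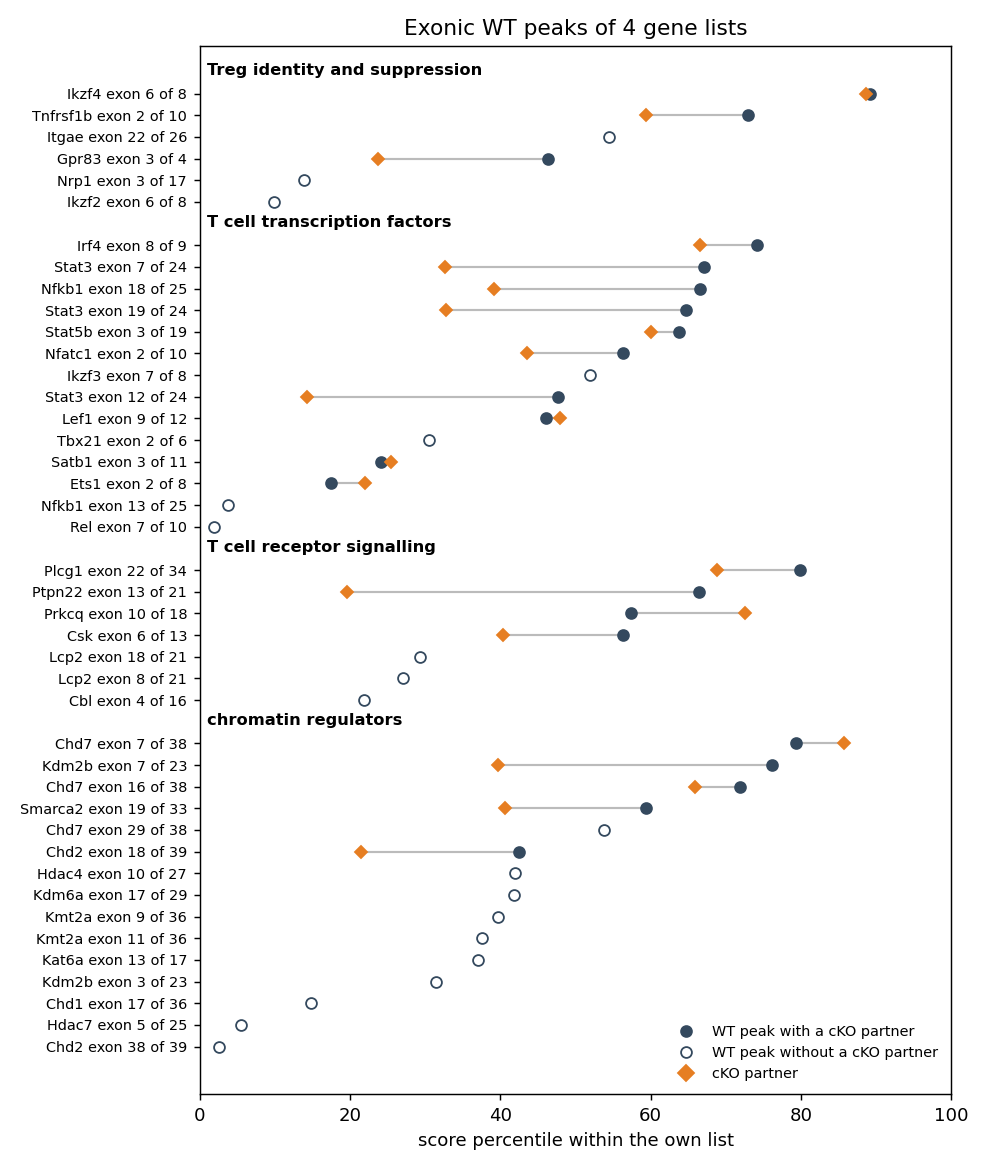
WT exonic peaks of 4 gene lists by score percentile within the list of peaks (x axis), each row 1 peak with its gene and exon. Filled circles have a cKO partner, whose percentile in the cKO list is the diamond, and open circles have none. Of the T cell transcription factor peaks 10 of 14 have a partner and of the chromatin regulator peaks 5 of 16 (1 of the 16 is not drawn), where 727 of all 1707 WT exonic peaks have one.

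Genes of the pentose phosphate pathway and central carbon metabolism had 3 WT exonic peaks among 36 genes, of which 35 had any WT peak. A cKO peak overlapped 1 of the 3 (33.3%, 6.15 to 79.2), an interval that includes the 42.6% of all WT exonic peaks and the 56.1% of all WT peaks. The 1 cKO exonic peak of the list had a WT peak. Pkm, the pyruvate kinase gene, over exon 5 of 11 at 13.1, and the transketolase-like gene Tktl1, over exon 10 of 13 at 9.57, had weak WT peaks with no cKO peak.

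Marker genes of other cells had 7 WT exonic peaks, in 6 genes. The B cell genes Blk (59.7 in WT, 6.83 in cKO) and Bank1 (40.2 and 34.03), the progenitor and dendritic cell receptor gene Flt3 (60.5 and 54.4) and both peaks of the endothelial and leukocyte gene Pecam1 (49.6 and 52.6, 49.9 and 13.4) were present in both lists. Klrb1c (NK1.1) at 32.5 and the collagen gene Col1a1 at 8.41 had no cKO peak. An open exon of such a gene shows neither its expression nor the presence of the other cell, and the part of other cells in the exonic peaks was not tested.

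Among gene families, predicted gene models held 248 of the 1707 WT exonic peaks, and a cKO peak overlapped 121 (48.8%, 42.6 to 55.0), beside 42.6% of all WT exonic peaks and 56.1% of all WT peaks. Zinc finger genes named Zfp had 12 WT exonic peaks in 11 genes, 4 of them overlapped (33.3%, 13.8 to 60.9, which includes both of those shares), with Zfp51 the strongest over exon 5 of 5 at 81.3 in WT and 77.1 in cKO. Collagen genes had 5 WT exonic peaks in 3 genes, none overlapped, too few for a useful limit. T cell receptor and immunoglobulin segments, olfactory and vomeronasal receptors, protocadherins and replication-dependent histone genes had no exonic peak in either list. Peaks within 3 kb of a gene start are left out of the exonic class, so this absence does not show closed chromatin at these genes.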

How the data were processed

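Each deposited list held the peaks of 1 library, and the authors gave for each peak its position, width, score, annotation class with exon number, assigned gene and distance to that gene's start. The submitters' processing notes name BWA, MACS2, Trimmomatic and FastQC and the build mm10. The sources used here do not give versions, caller settings, Tn5 read shifting, duplicate removal or the annotation tool. The deposited score has no further description in the file headers, and it was used only to rank peaks within a list. Depth is unknown, and the number of peaks limits precision.

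Overlaps of at least 1 bp were computed in Python 3.11.15 with pandas 2.3.3 and differed from bedtools 2.31.1 at 0 of 34440 WT and 0 of 19680 cKO peaks. The computation of the exonic minus intronic difference within score bins was also run on simulated overlaps with a known difference. Its outcome is not reported here, and the shares themselves were not simulated. Groups came from the titles and genotype labels. Shares carry Wilson 95% intervals, and differences outside bins carry Newcombe intervals. Differences within 10 score bins, or within score and width bins, carry normal 95% intervals on counting error. They were weighted by exonic peaks, or by peaks in the first 2 exons where exon positions were compared. Limits for a share of 0 are 3 counts of the total.

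Genes were named by the exon, passing over predicted models. The text names the 10 strongest shared WT peaks, the 10 strongest in each list without a partner, the genes with most peaks, and up to 6 members of each gene list. Sequences around peak centres and the planned longer CTCF and NF-kappaB motifs were not used here. RefSeq windows served instead. Some genes of the lists are not reported here by name. Members and lists were chosen with earlier results of these data known. Alternatives used a stricter overlap, score and width minimums, equal list lengths, autosomes alone, no predicted models and another rule for exon 2 of 2.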

Additional observations from a re-analysis of the deposited data

How the results depend on the processing

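Of 71 recomputed values, 45 stayed within the interval of the reported value or, for counts of peaks, within 1.5 times of it, and the others did not. The exonic minus intronic difference changed sign in 1 setting, and so did that difference within score bins, whose reported interval includes 0. A 50% overlap minimum, autosomes alone and counting exon 2 of 2 as last moved none. With the WT list reduced to the length of the cKO list, the exonic minus intronic difference became -2.23 points (-5.83 to 1.21). There 796 WT exonic peaks remained with a median percentile of 29.6 and a width of 1099 bp, 69.2% of them were overlapped (72.5% in the first 2, 68.3% in inner and 73.1% in last exons), and 73.7% of cKO exonic peaks had a WT peak. With only the upper 50% of each list by score, 604 WT and 213 cKO exonic peaks remained, with overlap of 37.4% and 98.6%, median percentiles among them of 31.3 and 31.7 and widths of 1154.5 and 1197 bp. The WT shares there were 36.6%, 35.3% and 57.7% from first 2 to last exons, and the difference from introns within score bins was 1.92 points (-1.22 to 5.07). Without predicted models the last exon share was 32.6% and the median percentiles 38.2 in WT and 31.6 in cKO. Percentiles in these settings were ranked anew within the shortened lists, so they do not show a shift in peak strength. With ranks of the full list, WT exonic peaks of named genes had a median of 39.6. With WT peaks of at least 465 bp, the narrowest width in cKO, the WT share was 46.2% and the inner share 45.1%. These settings keep fewer peaks, and some of them shorten both lists. The cause of the changes was not tested further. The comparisons within score and width bins and of exon positions within score bins were chosen after seeing the data. No paired analysis was possible because there is a single library in each group.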
